A study of Homo sapiens with 4 samples.

Results

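The HSP70 and HSP110 chaperones were followed through every probe set whose platform gene symbol field held HSPA1A, HSPA1B, HSPA1L, HSPA6, HSPA8, HSPA9, HSPA4, HSPA4L, HSPA14 or HSPH1. That rule found 27 of the 54675 probe sets on the array for these 10 of 21357 genes named there. A probe set is a group of short oligonucleotides that together read 1 transcript or a few similar ones. The field held 1 gene symbol for 20 of them and several for 7, which are called shared here: HSPA1A and HSPA1B were read only together, and every HSPA8 probe set also listed SNORD14C and SNORD14D, small nucleolar RNAs encoded in HSPA8 introns. The RNA came from U937 cells, an established human line with monocytic features that was grown from a lymphoma. In 1 group (2 samples) the cells had been given shikonin, a plant naphthoquinone, at 100 nM for 3 h at 37 °C, and in the control group (2 samples) the solvent dimethyl sulfoxide (DMSO). The labels state no time or temperature for the control cells and do not say whether the samples of a group are separate cultures. The p-values therefore reflect only how far these samples differ, and that spread may be technical. The comparison asked which of these chaperone transcripts differed after shikonin.

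HSP70 proteins bind exposed hydrophobic stretches of other proteins in cycles driven by ATP. J-domain proteins deliver substrates and trigger ATP hydrolysis, and nucleotide exchange factors release ADP so that the substrate is let go. The HSP110 proteins HSPH1, HSPA4 and HSPA4L are distant HSP70 relatives that serve mainly as such exchange factors. Some family members are present in all cells and others are made when damaged protein accumulates, through the transcription factor HSF1, which binds heat shock elements built from repeated GAA units in alternating orientation.

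The largest rises among the members were on probe sets of the stress-inducible genes HSPA1A, HSPA1B and HSPA6. Folds and log2 changes are on the scale of log2(signal + 9.94), which understates the change of dim probe sets. The probe sets of HSPA1A and HSPA1B were 7.61-fold to 15.9-fold higher after shikonin, those of HSPA6 8.46-fold and 14.6-fold, those of HSPH1 3.07-fold to 3.62-fold and those of HSPA4L 1.89-fold and 2.02-fold. Smaller folds were measured for members that are made constitutively: HSPA8, whose signals lay close to the array maxima, was 1.36-fold to 1.48-fold higher on its 4 probe sets. HSPA9, HSPA4 and HSPA14 changed by 1.43-fold at most, and not on all of their probe sets. Of the 27 probe sets, 25 were bright enough to be tested, 19 were called higher and 0 lower by limma, a linear model that shares variance between probe sets, at a p under 0.05 after Benjamini-Hochberg adjustment over all tested probe sets. Among all 32768 probe sets tested, 3.92% were called higher and 5.28% lower. Among the 3276 brightest, which held 12 of the chaperone probe sets, 11.2% were called higher. Brightness was the mean over the arrays of both groups, so probe sets that rose rank as brighter than in DMSO alone.

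The bases before the transcript start are shown for the 3 genes with the largest rises, because they hold heat shock element matches and because HSPA1A and HSPA1B are nearly the same there. They are from RefSeq on GRCh38.p14, 250 bases each, written 5′ to 3′ on the gene's strand and ending at the base before the start. Capitals mark matches to GAANNTTC or TTCNNGAA (2 units) or to the longer GAANNTTCNNGAA or TTCNNGAANNTTC (3 units), which contain the shorter ones. Each pair of patterns is its own reverse complement, so both strands were searched.
HSPA1A, chr6:31815293-31815542, plus strand: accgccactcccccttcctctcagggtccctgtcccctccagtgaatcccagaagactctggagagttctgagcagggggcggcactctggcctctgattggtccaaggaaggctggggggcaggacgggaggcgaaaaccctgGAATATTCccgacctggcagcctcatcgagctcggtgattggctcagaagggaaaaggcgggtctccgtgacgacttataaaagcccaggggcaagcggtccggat
HSPA1B, chr6:31827488-31827737, plus strand: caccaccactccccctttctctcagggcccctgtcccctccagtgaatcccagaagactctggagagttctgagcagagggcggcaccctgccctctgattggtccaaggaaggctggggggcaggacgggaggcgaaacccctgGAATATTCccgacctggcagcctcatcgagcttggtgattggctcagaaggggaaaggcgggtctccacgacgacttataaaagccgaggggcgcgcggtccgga
HSPA6, chr1:161524290-161524539, plus strand: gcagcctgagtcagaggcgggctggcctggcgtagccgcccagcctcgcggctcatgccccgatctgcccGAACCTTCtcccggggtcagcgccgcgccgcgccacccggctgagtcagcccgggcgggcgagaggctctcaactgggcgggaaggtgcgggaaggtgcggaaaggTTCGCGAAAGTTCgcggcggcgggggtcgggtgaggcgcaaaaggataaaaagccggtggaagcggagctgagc

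The windows of HSPA1A and HSPA1B were identical at 235 of 249 bases compared (94.4%), and each held a single 2-unit match, GAATATTC. HSPA1L starts on the opposite strand beside HSPA1A, and its window shared 241 bases with that of HSPA1A, with the same match in it. HSPA6 held a 3-unit match 62 to 74 bases before its start and a separate 2-unit match, GAACCTTC, 173 to 180 bases before it. HSPA8 held a pair of 3-unit matches, shown as 30-base stretches on the minus strand because this constitutive gene is set against HSPA6 below.
HSPA8, chr11:123062346-123062375: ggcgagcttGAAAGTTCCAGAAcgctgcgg
HSPA8, chr11:123062171-123062200: gcgggccccTTCTGGAAGGTTCtaagatag

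A 3-unit match lay in 0.441% of the 35116 promoter windows of the same length in the RefSeq table and a 2-unit match in 11.6%. Of the 9 chaperone genes with a window there, 6 had a 2-unit match and 2 of these a 3-unit match. These counts are per gene, while the shares are per window. The matches of HSPA1A, HSPA1L and HSPA1B lie in shared or nearly identical bases and are not independent. HSPA9, HSPA4 and HSPH1 had no match to these letters in these windows, and HSPA4L, with 3 start sites listed, had a 2-unit match before 1 of them. These are letter matches only, and binding was not measured.

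**Figure D1:**
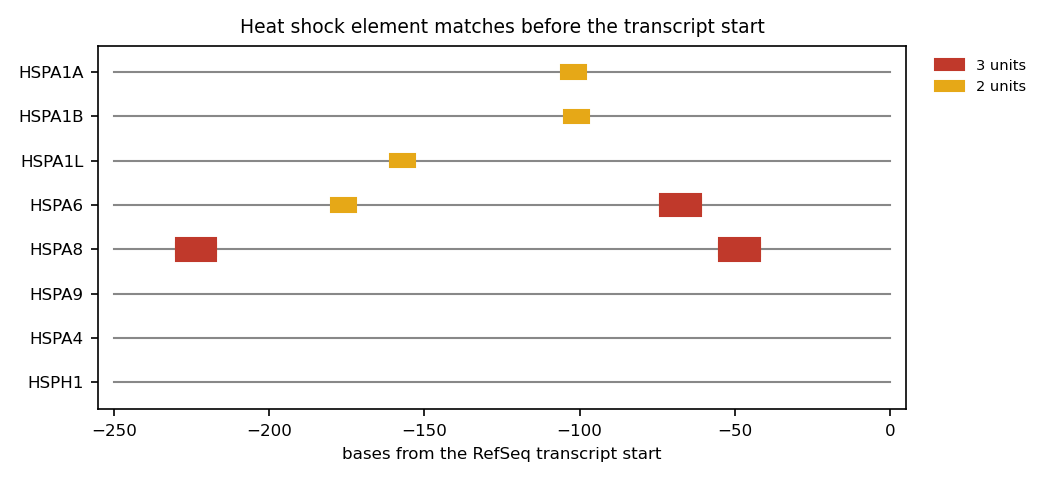
Heat shock element matches in the 250 bases before the transcript start of 8 genes, with the distance from the start in bases on the horizontal axis; red boxes are 3-unit and yellow boxes 2-unit matches. HSPA6 and HSPA8 carry the 3-unit matches, and HSPA9, HSPA4 and HSPH1 carry none of either kind; HSPA4L, which has several starts, is not drawn.

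HSPA1A and HSPA1B encode the main stress-inducible cytosolic HSP70. On the shared probe set 200800_s_at, whose field also lists HSPA1L, the signals were 1473 and 1482 in DMSO and 24259 and 22988 after shikonin. Both shikonin arrays lay far above both DMSO arrays, and the pair within each group was close. The log2 change was 3.99 (SE 0.057, 95% interval 3.86 to 4.12, adjusted p = 3.00e-09, limma), the third-largest rise among all tested probe sets. On 202581_at the signals were 1168 and 1094 in DMSO and 11597 and 11872 after shikonin, a log2 change of 3.36 (SE 0.063, 10.3-fold). On 200799_at they were 3034 and 2889 against 21969 and 23245, a log2 change of 2.93 (SE 0.057, 7.61-fold). The groups were apart on all 3, and the 95% intervals of the 3 changes did not overlap; whether the probe sets differ in their change was not tested. Since these probe sets name both genes, the rise cannot be assigned to either.

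HSPA6, an HSP70 that human cells make almost only under stress, was dim in DMSO. Its probe set 213418_at read 216 and 222 in DMSO and 3457 and 3202 after shikonin (mean 219 ± 3.68 to 3330 ± 180, SD, n = 2 each). Its other probe set, 117_at, read 178 and 186 against 1561 and 1670. The arrays did not overlap on either one, with log2 changes of 3.87 (SE 0.093) and 3.08 (SE 0.11) and adjusted p of 7.04e-08 and 1.06e-06 by limma. No probe set in the platform annotation names its near-identical pseudogene HSPA7 alone, so these probe sets may read both copies.

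HSPA1L is a close HSP70 relative best known from the testis. Its own probe set 210189_at was dim, at 101 and 103 in DMSO and 181 and 247 after shikonin, so the groups were apart but the shikonin arrays differed. The log2 change was 0.98 (SE 0.23, 95% interval 0.45 to 1.5, adjusted p = 0.0316, limma). The call was lost without DMSO 1 (adjusted p = 0.0739), DMSO 2 (0.0658) or shikonin 2 (0.19) and with no filter on dim probe sets (0.0923), and adjusted p over 10 alternatives ran from 0.0117 to 0.19. Its second probe set, 233694_at, was too dim to be tested, with 6.76 and 70.3 in DMSO and 33.2 and 27.3 after shikonin. The groups overlapped there.

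**Figure D2:**
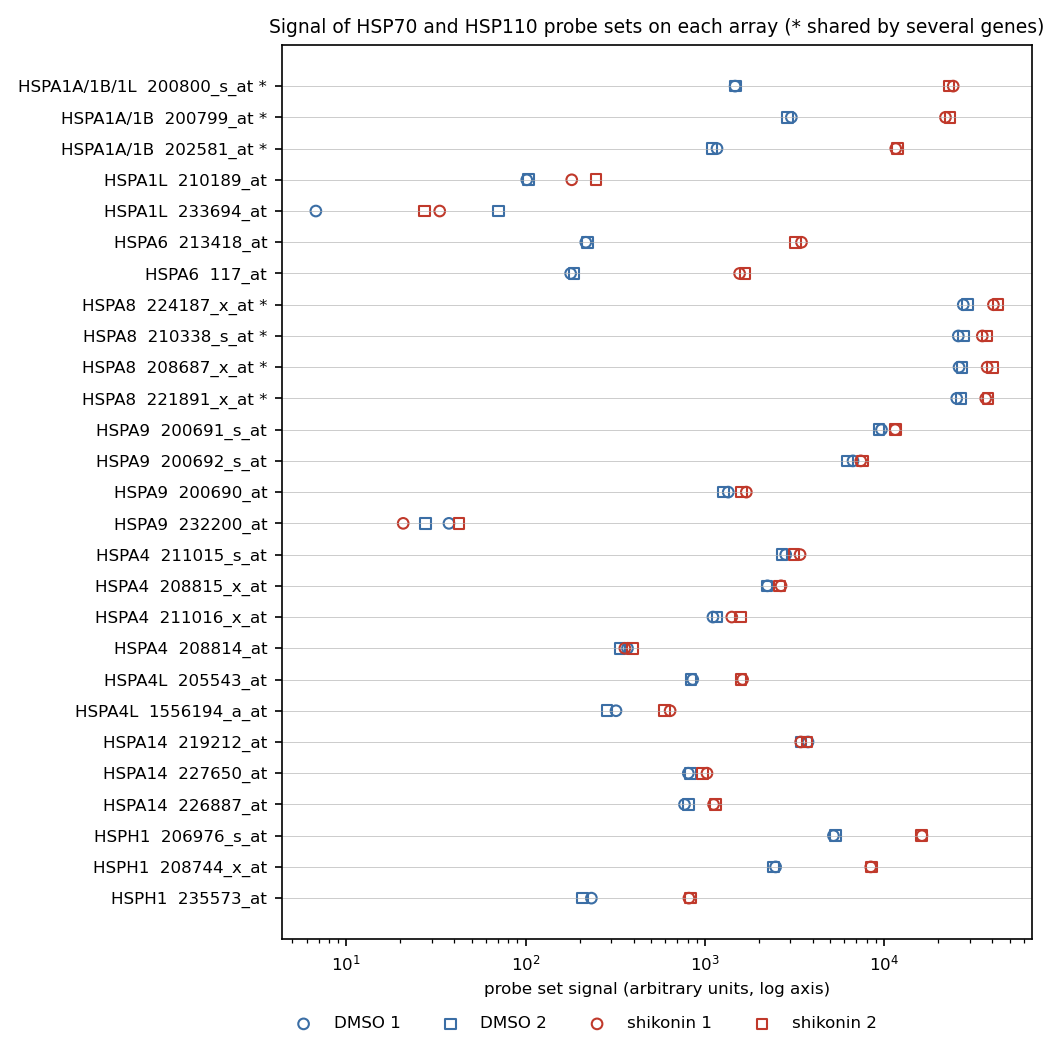
Signal on each of the 4 arrays (horizontal log axis, arbitrary units) for the 27 chaperone probe sets (rows); blue marks are the DMSO arrays, red marks the shikonin arrays, and an asterisk marks shared probe sets. Red and blue stand farthest apart for HSPA1A/HSPA1B and HSPA6, lie clearly apart for HSPH1 and HSPA4L, and overlap on 208814_at (HSPA4), 219212_at (HSPA14) and the untested, dim 233694_at (HSPA1L) and 232200_at (HSPA9).

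HSPA8, the constitutive cytosolic HSP70 also called HSC70, uncoats clathrin vesicles and folds new proteins. All of its 4 probe sets were called higher; they share a target gene and are not replicates of each other. The brightest, 224187_x_at, read 27601 and 29133 in DMSO and 40658 and 43064 after shikonin, a log2 change of 0.56 (SE 0.051, adjusted p = 3.17e-04, limma). The lowest change was on 210338_s_at, with 25894 and 27702 against 35239 and 37388 (log2 change 0.44, SE 0.053). No DMSO array reached a shikonin array on any of the 4. In DMSO these signals already exceeded 99.7% of all probe sets, and the array maxima were 41709 to 45934. After shikonin they lay close to those maxima, and whether this limits the measured fold was not tested. Of the 102 tested probe sets at least as bright as the dimmest of HSPA8, the 4 of HSPA8 had the largest rises. The others had a median log2 change of 0.06 and 0.26 at most. HSP90AA1, a cytosolic HSP90 gene, was somewhat dimmer and not among them (23249 and 24515 in DMSO, 33127 and 35089 after shikonin). Its log2 change was 0.51 (SE 0.051), and it was picked for its brightness after the values were seen.

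HSPA6 and HSPA8 both held 3-unit heat shock element matches. Their measured log2 changes were 3.08 to 3.87 for HSPA6 and 0.44 to 0.56 for HSPA8, the latter near the top of the signal range. Neither the signal of HSPA6 in DMSO (182 and 219 on its probe sets) nor that of HSPA8 can be turned into a relative abundance, since probe sets of different genes are not on 1 scale.

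HSPA9, known as mortalin, is the HSP70 of the mitochondrial matrix, where it pulls in imported proteins and helps assemble iron-sulfur clusters. On 200691_s_at the signals were 9655 and 9336 in DMSO and 11519 and 11594 after shikonin, a log2 change of 0.28 (SE 0.051, adjusted p = 0.00971, limma). On 200690_at they were 1349 and 1272 against 1702 and 1601 (log2 change 0.33, SE 0.080, adjusted p = 0.0332). The groups did not overlap on either, but the sizes were small. The third tested probe set, 200692_s_at, did not pass (0.21, 95% interval 0.08 to 0.34, adjusted p = 0.0536), and the fourth, 232200_at, was too dim to be tested (20.7 to 42.6 over the arrays). Leaving out any single array ended the call on 200690_at (adjusted p of 0.0534 for DMSO 1, 0.122 for DMSO 2, 0.15 for shikonin 1 and 0.0621 for shikonin 2), as did applying no filter on dim probe sets (0.0608), with 0.0107 to 0.15 as the range over its alternatives. That on 200691_s_at was lost without shikonin 1 (0.0515) or shikonin 2 (0.0566), with 2.73e-04 to 0.0566 as the range over its alternatives.

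HSPA14 forms the ribosome-associated complex with the J-domain protein DNAJC2, which binds emerging chains. Its probe sets disagreed. On 226887_at the signals were 769 and 813 in DMSO and 1117 and 1146 after shikonin, without overlap (log2 change 0.51, SE 0.088, adjusted p = 0.00839, limma). On 227650_at they were 808 and 834 against 1027 and 968, which did not pass (0.28, adjusted p = 0.0915). On the brightest, 219212_at, they were 3758 and 3432 against 3421 and 3705, so the groups overlapped, and the change was -0.01 with a 95% interval of -0.17 to 0.15. The labels and the platform annotation give no transcript for each probe set, and the reason for the disagreement was not tested. DNAJC2 itself did not pass (-0.01, adjusted p = 0.934, limma), and its other probe set, at 0.34, did not either.

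Among the HSP110 members, HSPH1, also called HSP105, rose on all 3 of its probe sets. On 206976_s_at the signals were 5209 and 5339 in DMSO and 16229 and 16157 after shikonin (log2 change 1.62, SE 0.051, adjusted p = 5.14e-07, limma). On 208744_x_at they were 2479 and 2414 against 8414 and 8496, a 3.45-fold rise. On 235573_at they were 233 and 207 against 814 and 829, a 3.62-fold rise. Arrays of a group lay close together, and the 3 changes, 1.62, 1.78 and 1.86, had overlapping 95% intervals.

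HSPA4L, an exchange factor also known as APG-1 that is abundant in testis, rose on both of its probe sets. Its signals on 205543_at were 855 and 835 in DMSO and 1622 and 1590 after shikonin (log2 change 0.92, SE 0.081, adjusted p = 2.74e-04, limma). On 1556194_a_at they were 319 and 284 against 639 and 597 (log2 change 1.01, SE 0.127, adjusted p = 0.00176). The groups were apart on both, with changes of about the same size.

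HSPA4, also known as APG-2, is the most widely made of the HSP110 proteins. Only 211016_x_at passed, with 1108 and 1166 in DMSO and 1412 and 1575 after shikonin (log2 change 0.39, SE 0.087, adjusted p = 0.0258, limma), and it lost the call without DMSO 1 (0.0873), without shikonin 2 (0.13) or with no filter (0.0528); adjusted p over its alternatives ran from 0.00542 to 0.13. On 211015_s_at (2822 and 2685 against 3393 and 3136) and 208815_x_at (2232 and 2221 against 2658 and 2600) the groups did not overlap, yet neither passed (adjusted p 0.0595 and 0.0531). On 208814_at (370 and 337 against 358 and 395) they overlapped, with a 95% interval of the log2 change from -0.22 to 0.40. The 95% intervals of all 4 HSPA4 probe sets ended below 0.59, and those of the 3 HSPH1 probe sets began above 1.5.

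**Figure D3:**
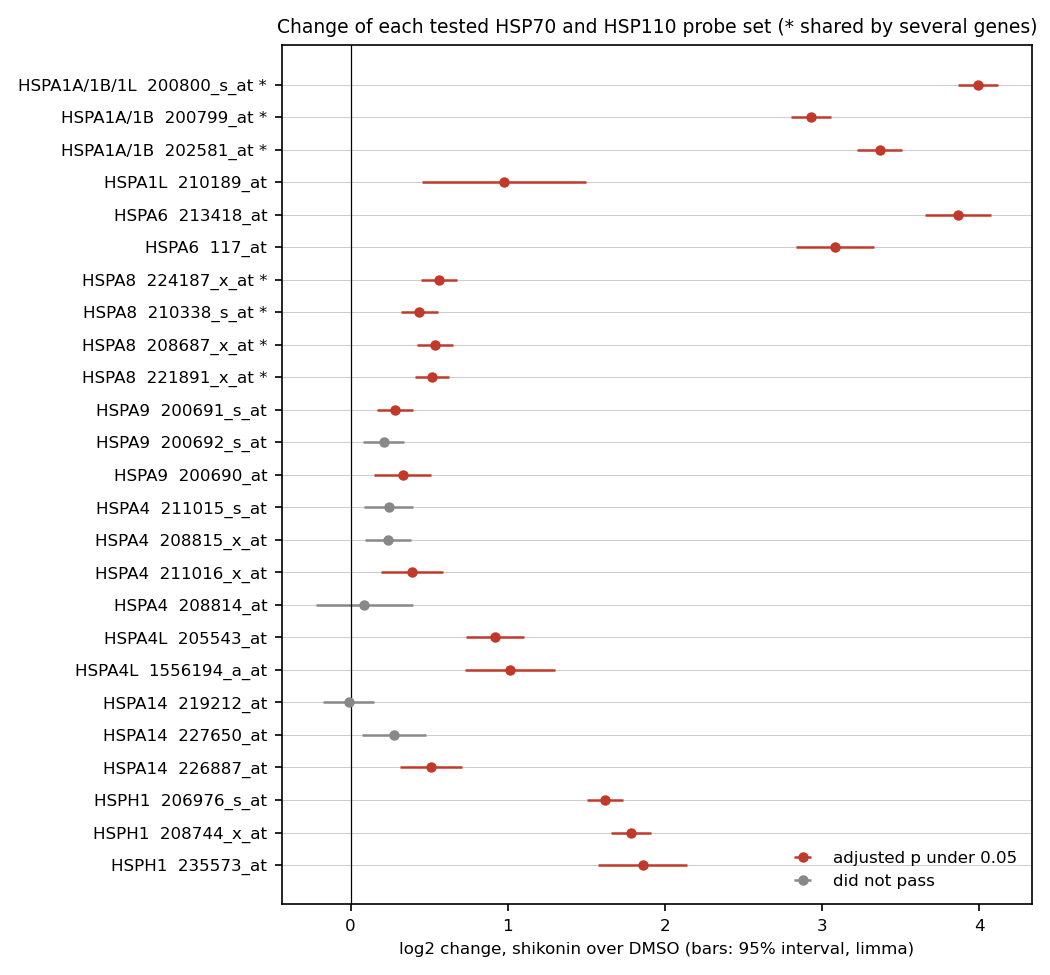
Log2 change after shikonin with its 95% interval from limma for the 25 tested chaperone probe sets; red points passed an adjusted p of 0.05, grey points did not, and an asterisk marks shared probe sets. The changes run from -0.01 on an HSPA14 probe set to 3.99 on a probe set of HSPA1A, HSPA1B and HSPA1L.

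Over the 25 tested probe sets the median log2 change was 0.54, against 0.01 over all tested probe sets. The 18 tested probe sets with 1 symbol had a median of 0.45, and 12 of them were called higher. At least a 2-fold rise with a call was found for 9 of the 25, against 0.558% of all tested probe sets. The groups were apart in the upward direction on 23 of the 25, where 27% of all tested probe sets were. Several of these probe sets read the same gene, so they are not independent. Of the 19 calls, 15 held in all 10 alternatives other than the variance prior: HSPA1A/HSPA1B on 3 probe sets, HSPA6 on 2, HSPA8 on 4, HSPH1 on 3, HSPA4L on 2 and HSPA14 on 1. With a single variance prior, in which variance does not follow signal, limma called none of the 25 (smallest adjusted p 0.0764) although 20 had an unadjusted p under 0.05; it called no other probe set either. Without the shared and the _x_at probe sets, which are open to cross-hybridization, 10 of the members were called higher.

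**Figure D4:**
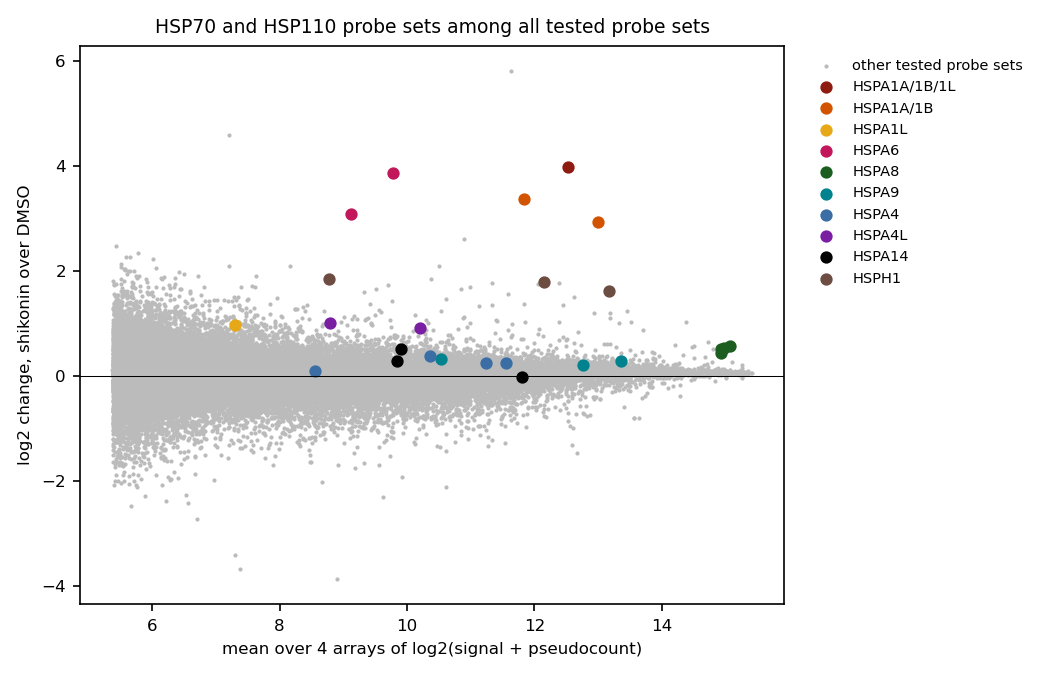
Log2 change after shikonin against the mean log2 signal for all 32768 tested probe sets (grey), with the chaperone probe sets in colour by gene. HSPA1A/HSPA1B and HSPA6 lie between 2.93 and 3.99, HSPH1 between 1.62 and 1.86, and HSPA8 at the bright end at 0.44 to 0.56.

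The HSP70 partners and other heat shock genes were grouped in 7 lists of 63 genes, each gene read by its brightest single-gene probe set. Of the 55 tested, 21 were called higher and 1 lower, with a median log2 change of 0.21. Over all 13554 genes tested, 5.05% were called higher and 6.65% lower, with a median of 0.00. The lists were chosen with earlier results of these data known, so their counts are no independent evidence. Of the 22 calls, 6 ended without at least 1 array.

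Among other HSP70 superfamily members, 1 of 4 tested rose. HSPA5, the HSP70 of the endoplasmic reticulum, read 13034 and 12662 in DMSO and 17669 and 17264 after shikonin (log2 change 0.44, SE 0.049), and its other probe set passed too, at 0.68. HYOU1, an exchange factor of that compartment, did not pass (0.24, adjusted p = 0.0536, limma), nor did HSPA13 (0.19) or the dim HSPA2 (0.48, SE 0.47).

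Of 8 genes listed under nucleotide exchange outside HSP110, 4 rose. BAG3, which links HSP70 to selective autophagy, read 765 and 752 in DMSO and 4614 and 4765 after shikonin, 6.12-fold higher. The other three were BAG1 (log2 change 0.38), BAG2 (0.43) and BAG6 (0.21). The BAG6 call ended whichever array was left out (limma, adjusted p 0.0915 to 0.164), that of BAG2 without DMSO 2 (0.11), shikonin 1 (0.0879) or shikonin 2 (0.0646), and that of BAG1 without shikonin 2 (0.054). With no filter on dim probe sets the calls of BAG2 (0.0619) and BAG6 (0.0933) ended as well, and with quantile normalization that of BAG6 (0.0711). One of the BAG6 probe sets lay at -0.38 and the other tested BAG2 probe set at -0.04, both without passing. For BAG5, 1 of its 3 probe sets was called lower, though not the brightest (-0.18, adjusted p = 0.106, limma).

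Of 13 cytosolic J-domain partners, 4 rose and 0 fell. DNAJB1, the main HSP70 partner under stress, read 5044 and 5168 in DMSO and 15778 and 16474 after shikonin (log2 change 1.66, SE 0.053). DNAJA4 followed the same direction at 1.74 (SE 0.096), DNAJA1 at 1.24 (SE 0.051) and DNAJB6, which holds back protein aggregation, at 0.47 (SE 0.068). The hub adaptor STIP1, which joins HSP70 to HSP90, rose by 0.68 (SE 0.13), and ST13, which slows ADP release from HSP70, by 0.25 (SE 0.051). The ST13 call ended without DMSO 1 (limma, adjusted p = 0.0603), shikonin 1 (0.102) or shikonin 2 (0.0651), and the calls of both STIP1 (0.0539) and ST13 (0.0537) ended with no filter on dim probe sets. The other 3 hub adaptors did not pass.

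Partners of mitochondrial HSPA9 did not move one way: of 9 tested, 1 rose and 1 fell. DNLZ, which keeps HSPA9 soluble, read 582 and 608 in DMSO and 915 and 1111 after shikonin (log2 change 0.75, SE 0.11). GRPEL1, the exchange factor of HSPA9, read 5753 and 5758 against 4590 and 4337 (log2 change -0.37, SE 0.058), and its other probe set fell as well, at -0.60. GRPEL2, its paralog, lay at -0.31 without passing (adjusted p = 0.0543, limma), though its other probe set passed, at -0.65.

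Of the heat shock factors only HSF1 was tested. HSF4 had 1 single-gene probe set, which was too dim to be tested, and no probe set named HSF2 alone. HSF1 was not called and changed by 0.10 (95% interval -0.11 to 0.30) and HSBP1, which binds HSF1 and is no heat shock factor itself, by 0.05 (95% interval -0.07 to 0.18), with an adjusted p of 0.567 and 0.611 by limma. Their unadjusted p was 0.307 and 0.353. The other probe set of HSF1 lay at -0.10 and that of HSBP1 at 0.09, both without passing. HSF1 activity is controlled mainly on the protein, which these arrays do not measure. Of 14 other heat-inducible targets of HSF1, 9 rose and 0 fell, with a median of 0.42. ZFAND2A, a proteasome-linked zinc finger protein, rose by 2.09 (SE 0.092), the small heat shock protein HSPB1 by 1.11 (SE 0.052), DEDD2, a death effector domain protein, by 1.11 (SE 0.085) and CHORDC1, a co-chaperone of HSP90, by 0.77 (SE 0.065). The small heat shock protein genes CRYAB and HSPB8 were dim and did not pass. UBB, IER5 and CLU were brighter (means of 23583, 2476 and 1356 in DMSO) and did not pass either. Their log2 changes were 0.17, 0.18 and 0.11 (limma, adjusted p 0.109, 0.155 and 0.4). With no filter on dim probe sets the calls of HSPD1 (limma, adjusted p = 0.0896) and HSP90AB1 (0.105) ended. That of HSP90AB1 also ended with quantile normalization (limma, adjusted p = 0.0693). Both calls ended without DMSO 1, shikonin 1 or shikonin 2 as well. Over the left-out arrays the log2 change ran from 0.20 to 0.33 for HSPD1 and from 0.18 to 0.28 for HSP90AB1.

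**Figure D5:**
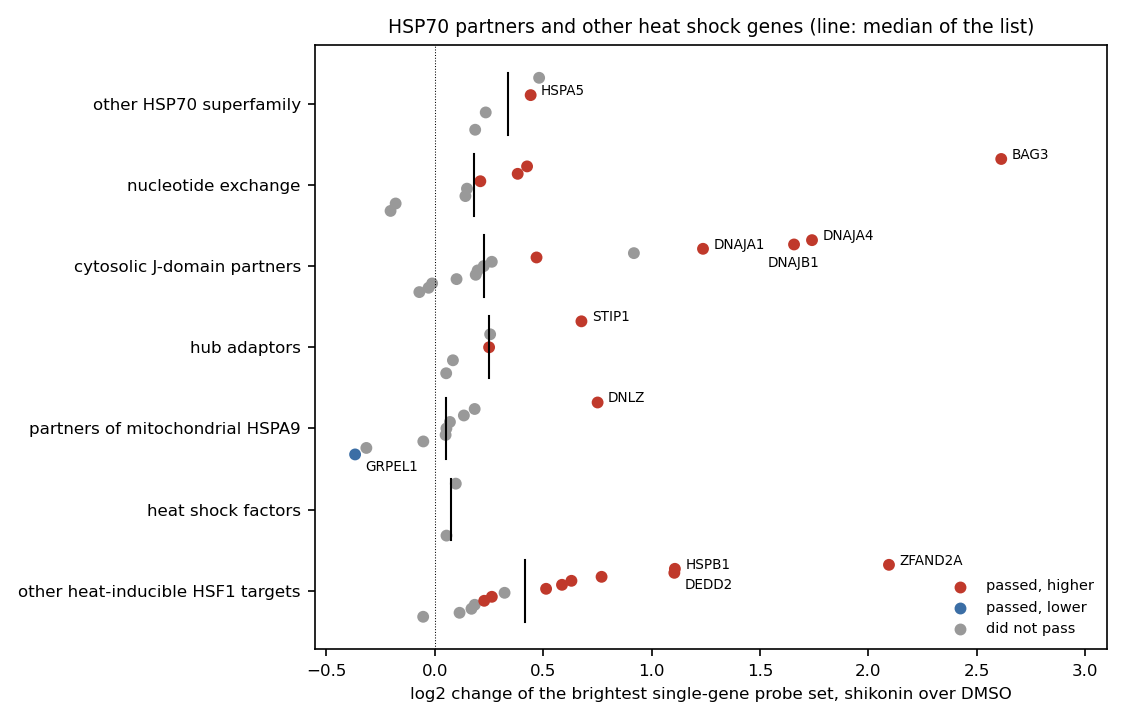
Log2 change after shikonin for the 55 tested genes of 7 lists of HSP70 partners and heat shock genes (points; red passed and higher, blue passed and lower, grey did not pass), with the median of each list as a line. BAG3 and ZFAND2A lie farthest to the right, and GRPEL1 is the gene that passed in the downward direction.

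The genes outside the family and its lists whose 4-array profile was nearest to that of HSPH1 were SRXN1, CASTOR2, NKX6-3, VASH1-AS1 and SH3PXD2A. Likeness was the Euclidean distance between log2 values set to each gene's own DMSO mean, over 4 arrays in 2 groups. The distance was 0.23 for SRXN1, which encodes sulfiredoxin and read 1385 ± 61.3 in DMSO and 4749 ± 278 after shikonin (SD, n = 2 each), and 0.29 to 0.36 for the other 4. With so few arrays it measures little more than a like size of change, and NKX6-3 and VASH1-AS1, at 19.1 and 27.2 in DMSO, were below the dimmest signal kept (31.6) there and passed the filter only through the shikonin arrays.

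The arrays were alike in brightness and RNA quality measures. Median signals ran from 60.5 to 63.7, and the ratio of 3' over 5' control signal from 1.14 to 1.19 for ACTB and from 1.05 to 1.13 for GAPDH. Of 14 monocytic markers measured, 13 exceeded the 40th percentile of all 4 arrays, 8 of them with a signal above 1000 throughout, CTSG and ELANE among them; FCGR1A did not exceed it on any. Of the markers of other cell types, 0 of 4 for T cells, 2 of 3 for B cells, 1 of 5 for epithelium, 1 of 2 for erythroid cells and 2 of 4 for fibroblasts exceeded that percentile on all arrays, and no tested marker of any type was called. The summed signal of the same monocytic probe sets, which serves only to set the groups side by side, was 94909 in DMSO and 93208 after shikonin. In such bulk samples a change in the share of cells that make a transcript and a change in RNA per cell cannot be told apart.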

How the data were processed

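Per the labels' protocols, total RNA was converted to biotin-labelled cRNA with a 3' amplification kit; the arrays were Affymetrix U133 Plus 2.0. The authors deposited 1 intensity for each probe set on a linear scale. The sources used here do not give the summarising software. After trimming 2% at each end, the mean intensity was 500.1 on all 4 arrays, so changes are relative to the rest of the array. Genes were named through the platform annotation.

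Values were converted to log2(signal + 9.94), the pseudocount being the 20th percentile, which understates the fold of dim genes. Array medians lay within 0.066 (log2), under a limit of 0.1, so no normalization was added. The 62 control probe sets and the 40% with the lowest mean log2 value were left out, which kept 32768. Groups, taken from the titles, were compared by limma 3.58.1 in R 4.3.3 (lmFit, eBayes with a trend; 2 residual and 7.1 prior degrees of freedom), two-sided, p-values being adjusted by Benjamini-Hochberg across these probe sets and called under 0.05. An exact permutation test of 2 against 2 arrays cannot go below p = 0.333 and was not used. The precision is limited by the number of arrays.

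Members and lists were chosen with earlier results of these data known. The text names all members; from each list up to 4 called genes with the smallest p in each direction; all tested genes of the other HSP70 superfamily and heat shock factor lists; and the 5 genes nearest to HSPH1. BAG5, DNAJC2, GRPEL2, CRYAB, HSPB8, UBB, IER5, CLU, HSPD1, HSP90AA1 and HSP90AB1 were added after their values were seen. Alternatives changed the pseudocount, filter, normalization, variance prior, arrays used, replicate block and choice of probe sets. Promoter windows were searched with Python 3.11.15.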

Additional observations from a re-analysis of the deposited data

How the results depend on the processing

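With 2 arrays in each group, the calls rest on the error model. With a single variance prior 0 member probe sets, 0 listed genes and 0 of all probe sets were called in either direction, with smallest adjusted p 0.0764, although 5970 of all tested and 20 members had an unadjusted p under 0.05. Without shared and _x_at probe sets 10 members were called higher. In the other alternatives 15 to 22 members were called higher and 0 lower. Left-out arrays gave 15 to 17 members and 15 to 19 listed genes called higher, and 1 to 2 listed genes lower. All tested probe sets called higher then numbered 577 to 957, and lower 1099 to 1295, against 1286 and 1729. Listed genes called lower numbered 2 with the lowest 60% left out, with the replicate block and with the mean over probe sets. With no filter 638 rose and 1111 fell among all probe sets. The labels number the arrays of both groups alike but do not tie the numbers to a culture, and deviations of same-numbered arrays correlated at 0.02. With the replicate block 22 members, 2327 of all probe sets higher and 2606 lower were called, with 1 residual degree of freedom. Of the 6 members not called, 3 passed in at least 1 alternative, all HSPA4 or HSPA9 probe sets. The HSPA14 probe set 219212_at changed sign, its log2 change running from -0.078 to 0.053 without 1 array; the other 24 stayed above 0 in the 10 alternatives other than the single prior. Very dim probe sets (232200_at, 233694_at) allow no statement.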
